A study of Macaca fascicularis with 25 samples.

Results

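RNA of embryo regions captured at Day 20 was compared with RNA of embryo regions captured at Day 18. The embryos were of the cynomolgus monkey, Macaca fascicularis. The members were chosen by the age given in the labels, and they are 8 Day 20 and 16 Day 18 libraries, 24 of the 25 libraries in the series. The remaining library, of Day 16, was used as a reference with no test. Each library was made from a region of about 20 cells, cut by laser microdissection from frozen sections of embryos still attached to decidua, the maternal lining, and amplified by the Smart-seq2 method for very small amounts of RNA. The Day 18 libraries are labelled hypoblast (3), epiblast (3), exmc (6) and others (4). The Day 20 libraries carry no tissue name and form sets of 4, titled E20_1 and E20_2. The labels give no genotype, treatment, embryo, sex or preparation date for any library, nor the event from which days are counted. Differences between days therefore cannot be told apart from differences between embryos, between preparations or in the mixture of tissues captured. In pooled cells, fewer cells of a type and less RNA per cell cannot be told apart either.

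The epiblast is the sheet of pluripotent cells from which the embryo itself develops. The hypoblast lies under it and contributes to the lining of the primitive yolk sac. Around these days of primate development the epiblast borders the amnion and starts gastrulation at the primitive streak. Extraembryonic mesenchyme and trophoblast lie around the embryo. Markers of these tissues could not be looked up, because the deposited table holds Ensembl gene identifiers without names, and 0 of its 28592 identifiers matched the gene table used here. The labelled tissues were thus not checked against their markers, 18 lists of pathway and marker genes could not be read, and genes are described as identifiers, with the 4 named below chosen by rank.

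Depth overlapped between the days. Total counts were 7893013 ± 1176621 (SD, n = 8; range 5197802 to 9114870) at Day 20 and 6366424 ± 2173460 (SD, n = 16; range 2909114 to 10462278) at Day 18, and the difference had p = 0.0792 in a two-sided exact permutation test over libraries (0.396 after Benjamini-Hochberg adjustment over 5 measures of the libraries). Identifiers with at least 1 count numbered 16462 ± 906 (SD, n = 8) at Day 20 and 15623 ± 1629 (SD, n = 16) at Day 18 (adjusted p = 0.484, same test). After each library was thinned to 2909114 counts, the numbers were 15655 ± 819 (SD, n = 8) and 15091 ± 1456 (SD, n = 16), with the same adjusted p by the exact permutation test, 0.484. The most abundant identifier held 1.4 to 16.2% of counts at Day 20 and 5.05 to 32.2% at Day 18 (adjusted p = 0.484, exact permutation test). The 10 most abundant held 7.19 to 27.1% and 10.2 to 44% (adjusted p = 0.724, exact permutation test).

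Several libraries stood apart. At Day 20 these were library 4 of E20_1 and library 4 of E20_2, whose Spearman correlation with each other was 0.935 and with the other 6 Day 20 libraries averaged 0.823. At Day 18, exmc libraries 1 and 4 had mean correlations of 0.699 and 0.62 with the other Day 18 libraries, against 0.764 to 0.841 for the other 14. Several results that rest on these libraries are given with and without them, but the principal components only with all 24 libraries.

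Each of the 8 Day 20 libraries correlated more with the other Day 20 libraries, by a mean of 0.823 to 0.895, than with all Day 18 libraries, by a mean of 0.774 to 0.843. Against single Day 18 groups this failed for E20_1 library 1, at 0.864 with hypoblast and 0.86 with Day 20. It also failed for E20_1 library 2, at 0.876 with others and 0.867 with Day 20. With exmc libraries 1 and 4 left out, pairs averaged 0.863 within Day 20, 0.838 within Day 18 and 0.84 between days. Day 18 libraries were spread more widely, and over both days together pairs within a day averaged slightly lower than pairs between days. The mean Spearman correlation of log2 CPM, counts scaled to library size by the TMM method, was 0.863 over the 28 pairs within Day 20 (range 0.752 to 0.935), 0.796 over the 120 pairs within Day 18 (0.536 to 0.937) and 0.818 over the 128 pairs between days (0.58 to 0.938). The average over all pairs within a day, most of them of Day 18, minus that between days was -0.00922, and a one-sided exact permutation test over all 735471 assignments of the Day 20 label gave p = 0.655. Without exmc libraries 1 and 4 the difference was 0.00457 (exact p = 0.236), and without library 4 of both Day 20 sets it was -0.0209 (exact p = 0.8). The nearest library was of the same day for 5 of the 8 Day 20 libraries and 10 of the 16 Day 18 libraries. With 16 Day 18 and 8 Day 20 libraries, a neighbour of Day 18 is likelier by number alone, and these counts were not tested. The nearest neighbours of E20_1 libraries 1 and 2 and of E20_2 library 1 were Day 18 libraries, namely hypoblast 2 (0.938), others 2 (0.923) and others 3 (0.928).

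**Figure D1:**
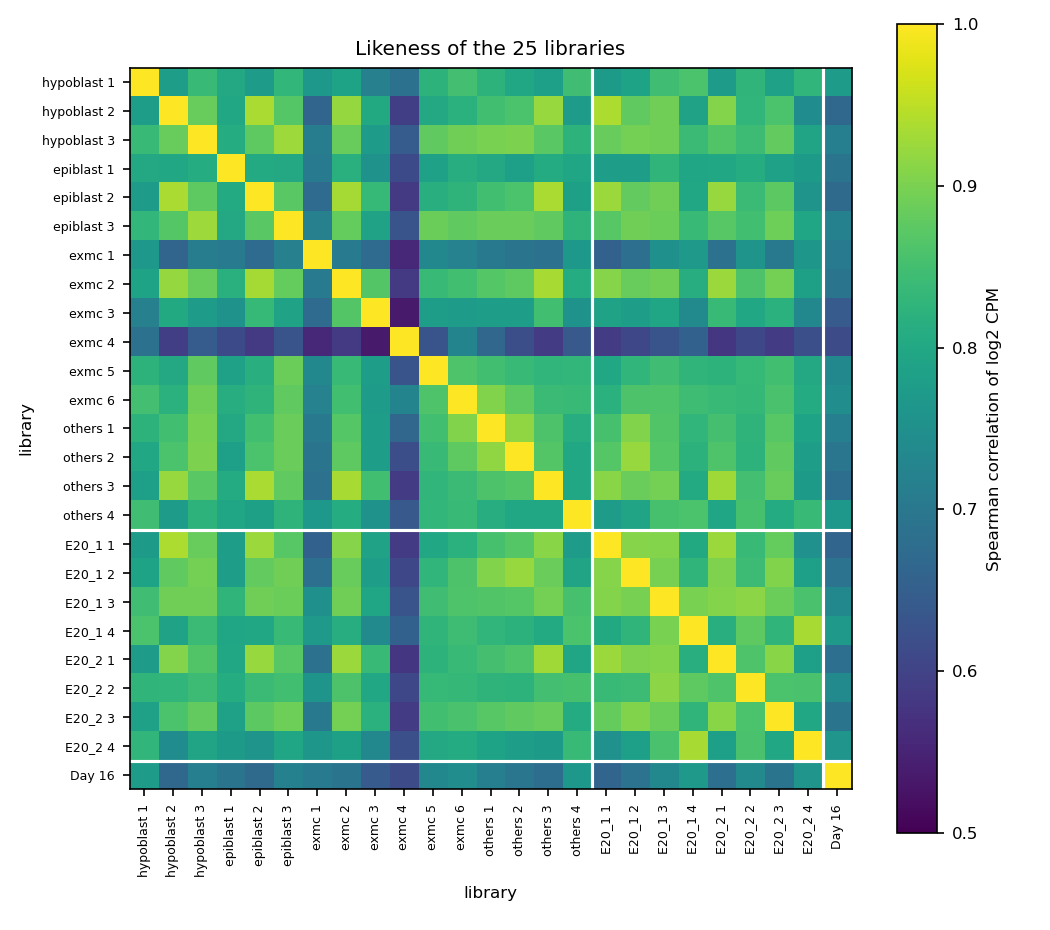
Spearman correlation of log2 CPM for every pair of the 25 libraries, with rows and columns ordered by group, white lines between the days and colour from 0.5 (dark) to 1 (yellow). The block of the 8 Day 20 libraries spans 0.752 to 0.935, within the 0.536 to 0.937 of the Day 18 block, while exmc 4 and exmc 1 form dark stripes, and the cell of E20_1 4 with E20_2 4 stands at 0.935.

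The map of pairwise correlations can also be read by Day 18 group. Day 20 libraries correlated on average 0.842 with hypoblast (range 0.743 to 0.938), 0.838 with epiblast (0.759 to 0.924), 0.848 with others (0.772 to 0.928) and 0.776 with exmc (0.58 to 0.925), or 0.831 with exmc when its libraries 1 and 4 were left out. The group with the highest mean was hypoblast for E20_1 libraries 1, 3 and 4, others for E20_1 library 2 and E20_2 libraries 2, 3 and 4, and epiblast for E20_2 library 1. Some margins were very small. E20_1 library 4 stood at 0.83 with hypoblast and 0.829 with others. E20_1 library 3 stood at 0.876 with hypoblast, 0.871 with others and 0.869 with epiblast. For E20_2 library 1 the means were 0.863 with epiblast, 0.86 with others and 0.849 with hypoblast. For E20_1 library 2 they were 0.876 with others, 0.855 with hypoblast and 0.85 with epiblast. These are descriptions of likeness and give no tissue to a Day 20 library.

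The day took up 6.14% of the total log2 CPM variance of the 24 libraries, where the mean over all assignments of the labels was 4.35% (one-sided exact permutation p = 0.0653). Leaving out exmc library 1 gave 6.83% (exact p = 0.0419) and leaving out exmc libraries 1 and 4 gave 7.4% (exact p = 0.0348), so this result passed 0.05 only in these of the settings run. For this measure, leaving out both exmc libraries was added after seeing the data. Principal components 1 and 2 held 20.2% and 13.8% of the variance, and 3.05% and 3.16% of their spread lay between days. Exmc libraries 1 and 4 lay farthest from 0 along both. They scored 169 and 231.6 on component 1 and -183.4 and 227.7 on component 2, and these components were not computed without them. Component 5, with 6.3% of the variance, had 33.3% of its spread between days (adjusted p = 0.00905, two-sided exact permutation test over 5 components), and the libraries of the days still overlapped along it. Epiblast library 1 stood apart on component 5 with a score of 152.9, and the next highest library, exmc library 5, scored 64.87. Component 5 was not computed without epiblast library 1. Libraries varied widely within each day. The biological coefficient of variation, the typical relative spread of a gene between libraries beyond counting error, was 0.856 over the Day 20 libraries and 1.12 over the Day 18 libraries, or 0.845 and 1.07 with separate means for the sets and groups.

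Of 16991 identifiers tested between Day 20 and all Day 18 libraries, 37 were called at an adjusted p under 0.05 by edgeR's quasi-likelihood test with Benjamini-Hochberg adjustment, 0.218% of those tested. At Day 20, 23 were higher and 14 were lower. An unadjusted p under 0.05 was seen for 1847 identifiers (10.9%), 746 higher and 1101 lower. The 23 higher identifiers had a median log2 fold change of 2.59, with 4 under 2-fold and 7 at or over 16-fold. Of them 20 exceeded 3 counts in at least 1 Day 18 library, with log2 fold changes from 0.67 to 5.48. The other 3 had at most 3 counts in every Day 18 library, and 1 of these was at 0 in all 16, which puts it at least 6.39 higher on the log2 scale against a floor of 3 counts over the group. That identifier averaged only 2.41 CPM at Day 20, with 47.1% of its summed level in E20_2 library 3. Its log2 CPM in E20_2 library 2 was the same as in the Day 18 libraries, -1.77. The 14 lower identifiers had a median log2 fold change of -4.71, and none was under 2-fold, with 8 at or over 16-fold. For the 12 of them that exceeded 3 counts in a Day 20 library the fall was 1.14 to 10.23.

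**Figure D2:**
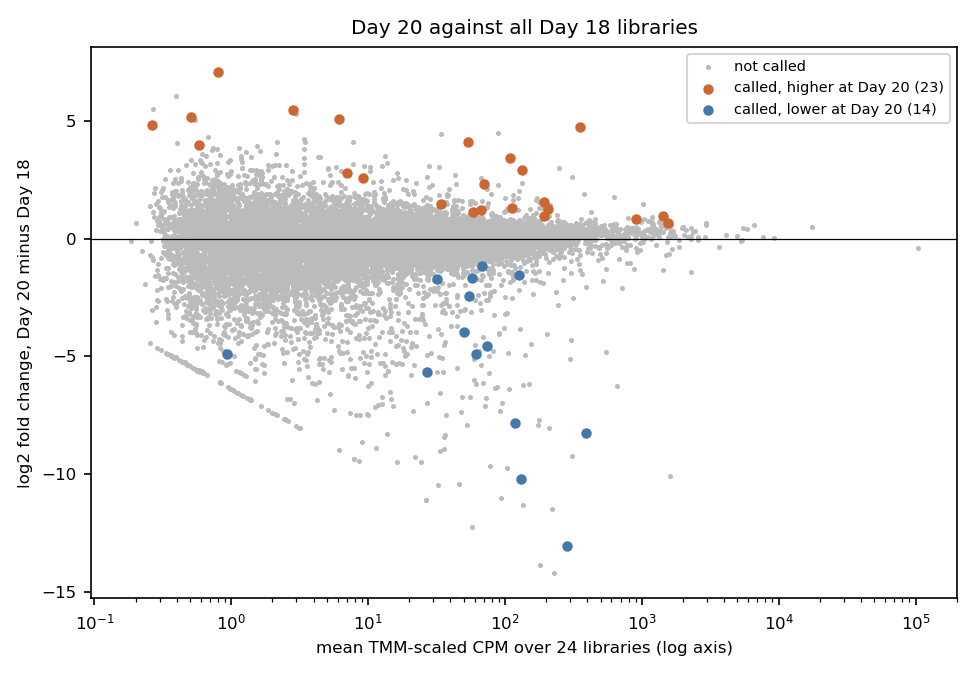
Log2 fold change of Day 20 minus Day 18 (vertical axis) against the mean TMM-scaled CPM over 24 libraries (horizontal log axis) for the 16991 identifiers tested, with the 23 called higher in orange, the 14 called lower in blue and the rest in grey. Many uncalled identifiers lie as far from 0 as the called ones, and the lower side reaches farther down than the higher side reaches up.

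The plot of fold change against level covers all identifiers tested, and the values given next cover the more abundant ones. Among the 7436 identifiers averaging 20 CPM or more, the median log2 fold change was 0.03, with quartiles of -0.27 and 0.29. The median is signed and depends on the scaling, so it does not measure the size of differences. A fitted difference of 2-fold or more was seen for 538 of them (7.24%), 161 higher and 377 lower at Day 20. Ranges of the 8 Day 20 and 16 Day 18 libraries did not overlap for 11 of 7435 identifiers at that level, 0.148%, 8 with Day 20 above and 3 with Day 20 below. The called identifiers included 9 higher and 3 lower ones whose ranges did not overlap, counted at any level.

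Taken as a share of all counts, the 23 higher identifiers held 0.633 to 1.48% (median 0.708%) in the Day 20 libraries and 0.219 to 0.495% (median 0.405%) in the Day 18 libraries. The 14 lower identifiers held 0.00827 to 0.024% (median 0.0156%) at Day 20 and 0.0702 to 0.93% (median 0.0967%) at Day 18. These shares describe identifiers that were chosen by the same comparison, so their separation is no further evidence. For 4 of the 23 higher identifiers, library 4 of both Day 20 sets lay over 2-fold above every other Day 20 library, and for 1 a single Day 20 library held over 50% of the summed level. For 2 of the 14 lower identifiers, a single Day 18 library held over 50%.

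**Figure D3:**
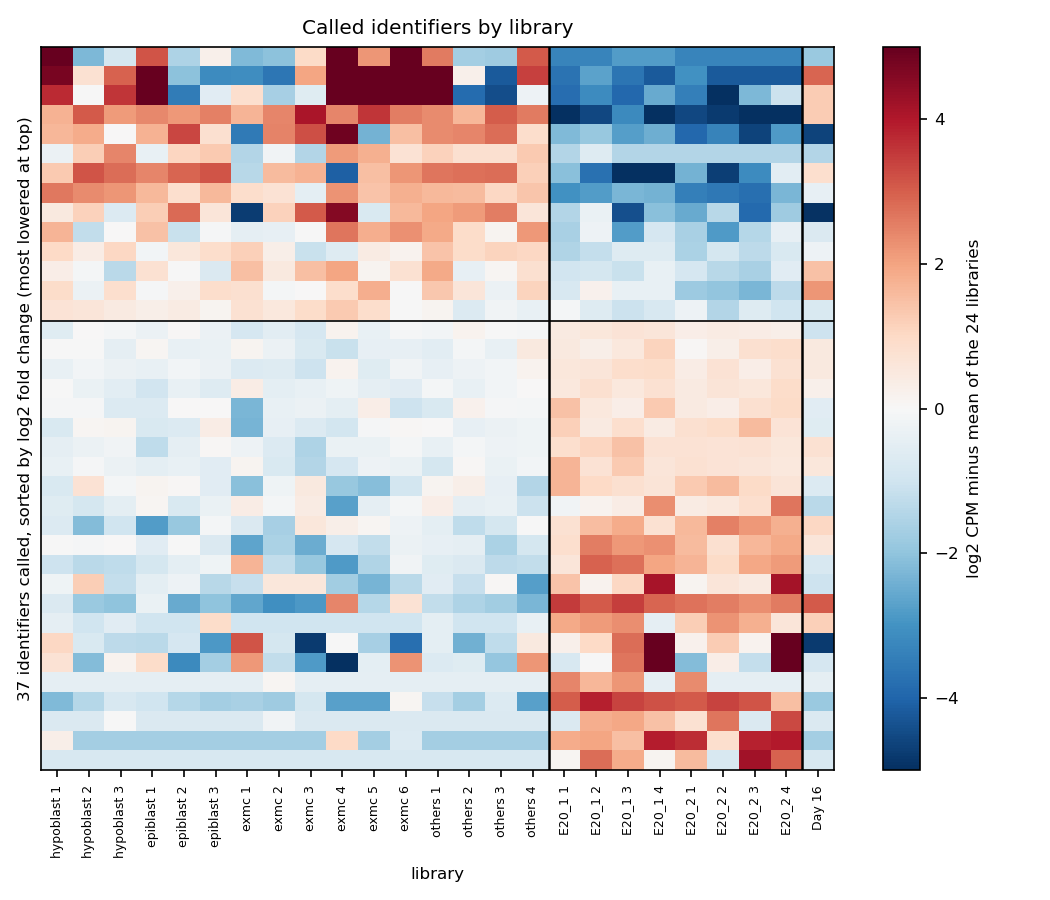
Level of the 37 identifiers called between Day 20 and all Day 18 libraries, as log2 CPM minus the mean of the 24 libraries (colour, blue below and red above), with libraries as columns and identifiers as rows sorted by log2 fold change. The 14 lower identifiers, above the horizontal line, vary among the Day 18 libraries with the darkest cells often in exmc 4, and 4 of the 23 higher ones are darkest in E20_1 4 and E20_2 4.

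The number of calls moved with single libraries, some of them visible as dark columns in the heat map of called identifiers, and with the tool. Without library 4 of both Day 20 sets edgeR called 17 identifiers (11 higher, 6 lower), of which 16 were among the 37. Without exmc library 4 it called 74 and without exmc libraries 1 and 4 it called 116, which included all 37. Leaving out E20_1 library 4, E20_2 library 3 or E20_2 library 4 left 20, 22 and 21 calls, and leaving out exmc library 5 left 24, while leaving out exmc library 1 gave 57. With E20_1 alone as Day 20 there were 12 calls and with E20_2 alone 5. DESeq2's Wald test called 311 (83 higher, 228 lower), 36 of the 37 among them, and limma's voom with sample quality weights called 226 (159 higher, 67 lower), 30 of the 37 among them.

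The identifiers named here are the 2 with the smallest p in each direction among the called ones with a mean of at least 20 CPM. ENSMFAG00000040922 fell from a level seen in every Day 18 library to almost none at Day 20. Its TMM-scaled CPM in E20_1 libraries 1 to 4 was 0.125, 0.887, 2.71 and 0.261, and in E20_2 libraries 1 to 4 it was 0.885, 0.711, 0.484 and 0, from 0 to 21 counts a library. At Day 18 it ranged from 87.5 to 472 CPM with a median of 151. All 8 Day 20 libraries were thus below all 16 Day 18 libraries, with means of 0.758 ± 0.858 (SD, n = 8) and 178 ± 99.9 (SD, n = 16). The log2 fold change was -7.85 with a standard error of 0.61 (edgeR, adjusted p = 7.87e-09).

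ENSMFAG00000045082 also fell. In E20_1 libraries 1 to 4 it stood at 4.01, 4.77, 6.98 and 6.53 CPM, and in E20_2 libraries 1 to 4 at 3.01, 2.7, 2.3 and 7.02 CPM. The Day 18 range was 25.2 to 221 CPM with a median of 106, the lowest in exmc library 3 and the highest in hypoblast library 1. Ranges did not overlap. Means were 4.66 ± 1.96 CPM (SD, n = 8) and 109 ± 51.6 CPM (SD, n = 16), and the log2 fold change was -4.54 with a standard error of 0.38 (edgeR, adjusted p = 2.5e-08).

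ENSMFAG00000045754 rose by a smaller step. Its level was 331, 381, 504 and 300 CPM in E20_1 libraries 1 to 4 and 303, 297, 299 and 269 CPM in E20_2 libraries 1 to 4. At Day 18 it ranged from 62.4 to 188 CPM with a median of 146. Every Day 20 library was above every Day 18 library. The means were 336 ± 75.5 CPM (SD, n = 8) and 141 ± 32.8 CPM (SD, n = 16), with a log2 fold change of 1.25 and a standard error of 0.18 (edgeR, adjusted p = 0.000515). With E20_2 alone as Day 20 the log2 fold change of 1.05 did not pass (edgeR, adjusted p = 0.153). Tested against a minimum fold of 2, ENSMFAG00000045754 did not pass either (edgeR, adjusted p = 0.779).

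ENSMFAG00000000024 rose as well. It stood at 76.8, 132, 165 and 75.9 CPM in E20_1 libraries 1 to 4 and at 139, 261, 204 and 155 CPM in E20_2 libraries 1 to 4. The Day 18 range was 6.22 to 66.7 CPM with a median of 27.6, so the ranges did not overlap, although E20_1 libraries 1 and 4 lay close to exmc library 3. Means were 151 ± 61.9 CPM (SD, n = 8) and 30.7 ± 17.4 CPM (SD, n = 16), with a log2 fold change of 2.30 and a standard error of 0.33 (edgeR, adjusted p = 0.000515). With E20_1 alone as Day 20 the log2 fold change of 1.88 did not pass (edgeR, adjusted p = 0.153). Tested against a minimum fold of 2, ENSMFAG00000000024 did not pass either (edgeR, adjusted p = 0.0582). Between the Day 20 sets, the 4 identifiers differed by log2 values of 0.96, 0.56, 0.38 and -0.76 (E20_1 minus E20_2, in the order described), each with an adjusted p of 1 in edgeR.

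**Figure D4:**
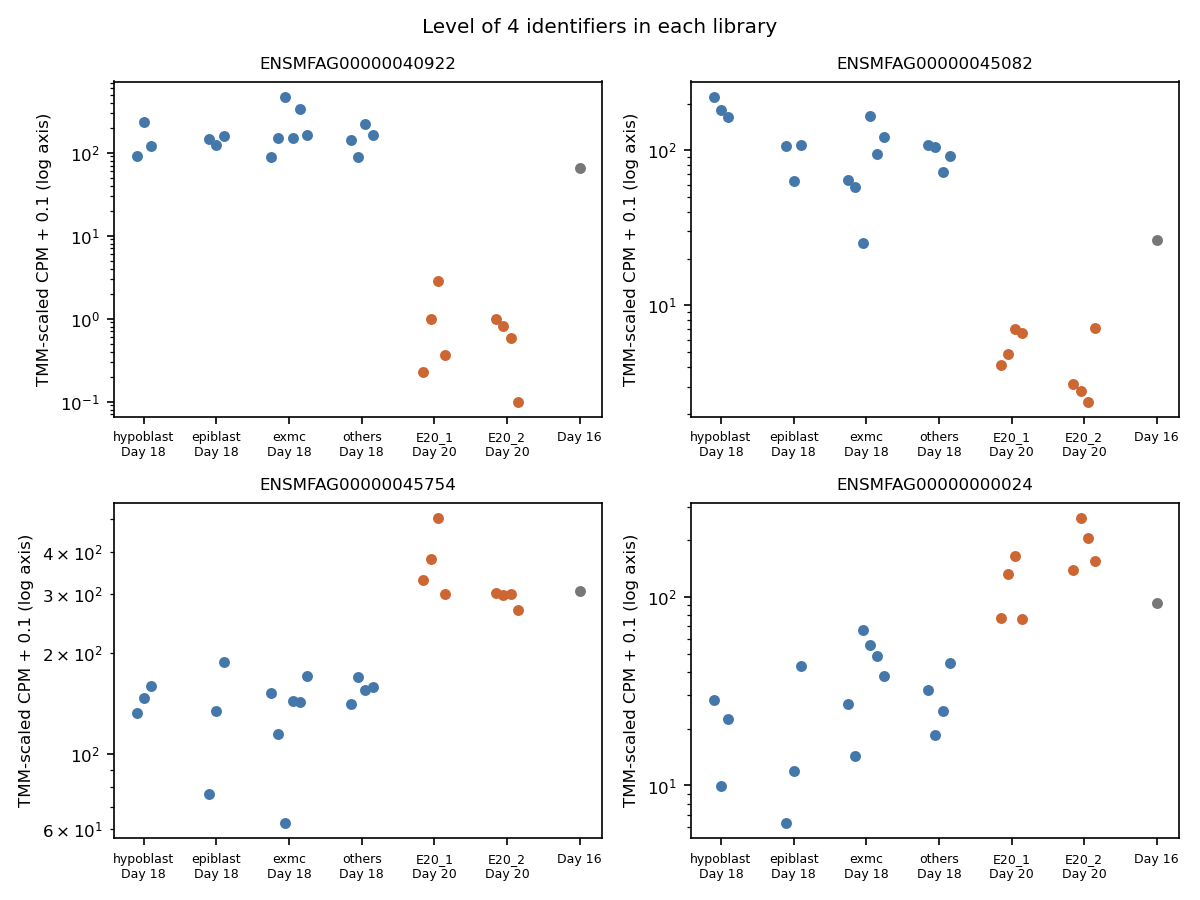
TMM-scaled CPM plus 0.1 (log axis) of the 4 named identifiers in each library, by group, with Day 18 in blue, Day 20 in orange and Day 16 in grey. In every panel the 8 Day 20 points lie wholly below (ENSMFAG00000040922 and ENSMFAG00000045082) or above (ENSMFAG00000045754 and ENSMFAG00000000024) the 16 Day 18 points, and the Day 16 point lies between the days for ENSMFAG00000040922 (65.7 CPM).

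The comparisons with single Day 18 groups shared the 8 Day 20 libraries, so their results are not independent of each other or of the pooled comparison. Against hypoblast, edgeR called 5 of 16991 identifiers (0.0294%), all lower at Day 20, while 1191 had an unadjusted p under 0.05. For 4 of the 5 the library ranges did not overlap, and for 3 a single hypoblast library held over 50% of the group's level. ENSMFAG00000040922 was among the 5, at 92.3, 232 and 120 CPM in hypoblast libraries 1 to 3 (log2 fold change -7.59 with a standard error of 0.67, edgeR adjusted p = 2.47e-07). ENSMFAG00000045082 was at 221, 181 and 163 CPM there (-5.33 with a standard error of 0.42, edgeR adjusted p = 4.12e-08). DESeq2 called 131 identifiers (94 higher, 37 lower) and limma 144 (65 higher, 79 lower). Leaving out 1 library gave 8 calls without exmc library 1, 3 without hypoblast library 2, hypoblast library 3 or E20_2 library 1, and 2 without E20_1 library 2, E20_2 library 2 or E20_2 library 3. Ranges of Day 20 and hypoblast did not overlap for 304 of 7238 identifiers averaging 20 CPM or more (4.2%), 176 above and 128 below. That count was 670, 652 and 474 without hypoblast library 1, 2 and 3, and 594 without E20_1 library 1. Ranges of fewer libraries separate more readily, so leaving out a library tends to raise the count. For the same reason the shares without overlap, here and below, do not rank Day 18 groups of different size by their difference from Day 20.

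Against epiblast, 3 identifiers were called (0.0177%), all lower at Day 20 with no overlap of ranges, and 1068 had an unadjusted p under 0.05. They fell by 4.31 to 7.54 on the log2 scale. ENSMFAG00000040922 stood at 146, 125 and 159 CPM in epiblast libraries 1 to 3 (log2 fold change -7.54 with a standard error of 0.67, edgeR adjusted p = 5.5e-07). ENSMFAG00000045082 stood at 107, 63 and 108 CPM (-4.31 with a standard error of 0.41, edgeR adjusted p = 1.07e-06). DESeq2 called 137 (107 higher, 30 lower) and limma 23 (11 higher, 12 lower). Without epiblast library 3 or exmc library 1, edgeR called 5. Ranges did not overlap for 194 of 7187 identifiers (2.7%), 110 above and 84 below. That count was 418, 502 and 550 without epiblast library 1, 2 and 3, and 360 without E20_1 library 1.

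Against the group labelled others, 5 identifiers were called (0.0294%), again all lower at Day 20, each without overlap of ranges, and 782 had an unadjusted p under 0.05. They fell by 2.18 to 7.64. In others libraries 1 to 4, ENSMFAG00000040922 stood at 141, 87.5, 223 and 165 CPM (log2 fold change -7.64 with a standard error of 0.66, edgeR adjusted p = 2.94e-07). ENSMFAG00000045082 stood at 108, 105, 71.9 and 91 CPM (-4.33 with a standard error of 0.39, edgeR adjusted p = 4.43e-07). DESeq2 called 72 (25 higher, 47 lower) and limma 82 (26 higher, 56 lower). Without others library 1, others library 3 or E20_2 library 3, edgeR called 2, and without others library 2 it called 3. Ranges did not overlap for 75 of 7231 identifiers (1.04%), 54 above and 21 below. That count was 169 without others library 3, 182 without others library 4 and 192 without library 4 of both Day 20 sets.

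Against exmc, 110 identifiers were called (0.647%), 15 higher and 95 lower at Day 20, and 2597 had an unadjusted p under 0.05. The 15 higher ones rose by 0.82 to 5.06 with a median of 1.45, and ranges did not overlap for 14 of them. The 95 lower ones had a median of -7.85, also with the 6 that were at 0 in all Day 20 libraries set to their bound. Of these 95, 24 had at most 3 counts in every Day 20 library and 80 were at or over 16-fold. They rested largely on 1 library: exmc library 4 was the highest exmc library for 77 of the 95 and held over 50% of the summed exmc level for 72. Exmc library 6 held over 50% for 6 more and exmc library 1 for 1. Without exmc library 4, 43 identifiers were called, 12 higher and 31 lower, and without library 4 of both Day 20 sets 19 were called. Without exmc library 1, 2, 3 or 5 the calls numbered 196, 242, 190 and 174, and without any single Day 20 library they numbered 44 to 57. With E20_1 alone or with E20_2 alone as Day 20, 2 were called. DESeq2 called 661 (144 higher, 517 lower, 73 of the 110 among them) and limma 61 (28 higher, 33 lower, 29 of the 110 among them).

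In the exmc libraries, ENSMFAG00000040922 ranged from 88.8 to 472 CPM with a median of 157 (log2 fold change -8.19 with a standard error of 0.65, edgeR adjusted p = 6.44e-08). ENSMFAG00000045082 ranged from 25.2 to 167 CPM with a median of 79.4 (-4.24 with a standard error of 0.37, edgeR adjusted p = 2.62e-07). ENSMFAG00000045754 ranged from 62.4 to 171 CPM (1.36 with a standard error of 0.25, edgeR adjusted p = 0.0103). This call was lost when only the Day 20 and exmc libraries were fitted (edgeR adjusted p = 0.0533) and with E20_1 or E20_2 alone as Day 20 (0.129 and 0.553). It was also lost when tested against a minimum fold of 2 (edgeR adjusted p = 0.488). ENSMFAG00000000024 ranged from 14.3 to 66.7 CPM (1.86 with a standard error of 0.43, edgeR adjusted p = 0.0452). The call of ENSMFAG00000000024 was close to the threshold and was lost in 17 of the 24 fits that left out 1 library. Ranges of Day 20 and exmc did not overlap for 53 of 7513 identifiers (0.705%), 38 above and 15 below. That count was 95, 93 and 82 without exmc library 1, 4 and 6, 89 without E20_2 library 4 and 188 without library 4 of both Day 20 sets.

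Against the other groups the risen identifiers did not pass in edgeR. For ENSMFAG00000045754 the log2 fold changes were 1.19 against hypoblast (edgeR adjusted p = 0.453), 1.33 against epiblast (0.497) and 1.10 against others (0.352). For ENSMFAG00000000024 they were 2.90 against hypoblast (edgeR adjusted p = 0.165), 2.90 against epiblast (0.226) and 2.34 against others (0.248). DESeq2 and limma called both identifiers against each of the 3 groups, with adjusted p from 4.05e-05 to 0.0245. ENSMFAG00000040922 and ENSMFAG00000045082 passed in all 38 other settings of the pooled comparison and in all 37 of each comparison with a group. Whether the fold changes differ between Day 18 groups was not tested.

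The Day 20 libraries differed among themselves. Within E20_1 the mean Spearman correlation was 0.874 (6 pairs), within E20_2 0.845 (6 pairs) and between the sets 0.865 (16 pairs), so libraries of one set were not set off from the other. Pairs that carry the same number in both sets correlated at 0.925, 0.842, 0.887 and 0.935 for numbers 1 to 4, and pairs with different numbers averaged 0.855 (12 pairs). What these numbers stand for is not in the labels. Of 7178 identifiers averaging 20 CPM or more at Day 20, both libraries numbered 4 lay outside the range of the other 6, on one side, for 2788 (38.8%). The same count was 972 (13.5%) for number 1, 163 (2.27%) for number 2 and 156 (2.17%) for number 3.

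By size, 70 identifiers were at least 4-fold higher in both libraries numbered 4 than in any other Day 20 library, and 48 were at least 4-fold lower. For number 1 the counts were 0 and 19, and for numbers 2 and 3 they were 0. This pair was singled out after its values were seen. The median level of the 70 was 182 CPM in E20_1 library 4 and 175 CPM in E20_2 library 4, against 4.01 to 18.6 CPM in the other Day 20 libraries. Day 18 libraries lay at 2.98 to 45.7 CPM (median 10.2), below both, with the highest in exmc library 1. The median level of the 48 was 4.7 and 2.92 CPM in the pair, 47.9 to 87.3 CPM in the other Day 20 libraries and 3.93 to 79.4 CPM (median 34.2) at Day 18. Of the 70, 3 were among the identifiers called higher at Day 20, and of the 48, 0 were called, where 0.218% of all tested identifiers were. Both sets were chosen on levels in Day 20 libraries, which also enter that comparison, so nothing is read from these counts.

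**Figure D5:**
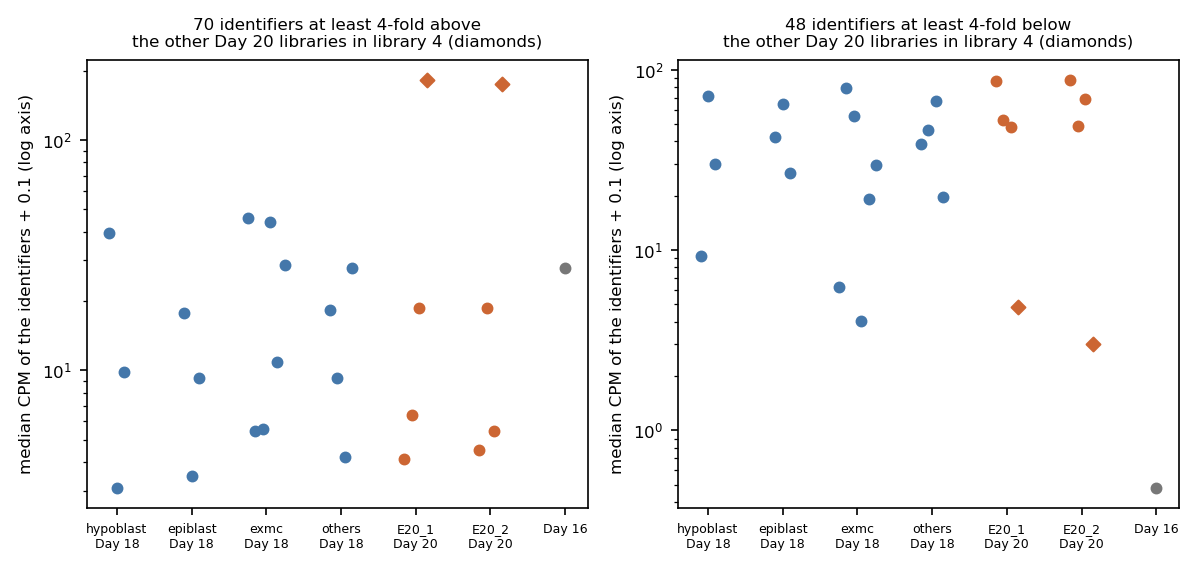
Median CPM plus 0.1 (log axis) over the 70 identifiers that are at least 4-fold above (left) and the 48 that are at least 4-fold below (right) the other Day 20 libraries in library 4 of both sets, for each library by group. The diamonds mark the libraries that chose the identifiers, at 182 and 175 CPM on the left and 4.7 and 2.92 CPM on the right, and all Day 18 points on the left lie at or under 45.7 CPM.

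The plot of these identifiers by library gives the Day 18 spread beside the pair. The 70 stood at 39.5 CPM in hypoblast library 1, 45.7 and 44.1 CPM in exmc libraries 1 and 4, and at 2.98 to 28.6 CPM in the other Day 18 libraries. The 48 were low in exmc libraries 1 and 4 (6.15 and 3.93 CPM) and hypoblast library 1 (9.15 CPM), and lay at 19.1 to 79.4 CPM in the other 13. The identity of the cells in these libraries was not tested.

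The Day 16 library, of 4348127 counts and 12759 identifiers, correlated 0.716 on average with Day 20 libraries (0.663 to 0.768) and 0.702 with Day 18 libraries (0.616 to 0.775). Its levels of the named identifiers were 65.7 CPM for ENSMFAG00000040922 (260 counts), 26.3 CPM for ENSMFAG00000045082, 307 CPM for ENSMFAG00000045754 and 93.2 CPM for ENSMFAG00000000024. ENSMFAG00000045082 was thus within the Day 18 range at Day 16, but only through exmc library 3 at 25.2 CPM. The next lowest Day 18 library, exmc library 2, stood at 57.8 CPM. Both risen identifiers were within the Day 20 range at Day 16. ENSMFAG00000040922 was below the Day 18 range but far above the Day 20 range. Of the 23 identifiers higher at Day 20, the Day 16 value lay only within the Day 18 range for 10, only within the Day 20 range for 6, within both for 5 and within neither for 2. Of the 14 lower identifiers the numbers were 7, 2, 2 and 3. The Day 18 range covers 16 libraries and the Day 20 range 8, so a value can fall within the Day 18 range more readily. As 1 library, Day 16 allows no test.

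Some identifiers were counted on 1 day only. Of those with a count, 918 were counted in Day 20 libraries and in no Day 18 library, of which 462 exceeded 3 counts in a library and 15 had a count in 4 or more of the 8 Day 20 libraries. For Day 18 only, 2536 were counted, 1587 exceeded 3 counts in a library and 22 had a count in 8 or more of the 16 libraries. None was present in every library of one day and absent from the other, and with 16 libraries against 8 these counts are not comparable between days.

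The 37 lowest-numbered identifiers, which include ENSMFAG00000000024 and hold a large share of reads, took 1.48 to 17.1% of counts at Day 20 (median 8.47%) and 5.35 to 33.7% at Day 18 (median 11.2%). Of their 16 tested members 2 were called, both higher at Day 20, where 0.218% of all tested identifiers were called in either direction, and the median log2 fold change of the 16 was 0.24.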

How the data were processed

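The values are whole-number counts of reads for each Ensembl identifier, deposited by the authors with one column a library. RSEM and STAR 2.3.4 appear in the submitters' processing notes. The role of each, the genome build, the annotation and the use of strand were not given in the sources used here, so identifiers that share reads may be miscounted. Columns were matched to samples by title, and 0 lacked a sample. Groups came from the labels. Over 276 pairs of libraries the chi-square per gene was 16.7 to 319, above counting noise, so no library was counted as a second deposit. Nothing says that libraries came from separate embryos, so a p-value measures only how captured regions vary, and is too small wherever 1 embryo gave several regions of a group.

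The main test was that of edgeR 4.0.16 in R 4.3.3: filterByExpr over 5 groups (hypoblast, epiblast, exmc, others and Day 20), TMM scaling, and glmQLFit and glmQLFTest, two-sided, with Benjamini-Hochberg adjusted p under 0.05. The pooled fit had 1 term for day, and the comparisons with single groups came from 1 fit of 5 group means over 24 libraries. Of 24564 identifiers with a count, 16991 were tested. Standard errors are the fold change over the square root of F. Levels are TMM-scaled CPM, with a prior count of 2 on the log2 scale, and libraries were compared with Python 3.11.15 (scipy 1.17.1, pandas 2.3.3, numpy 2.4.6, with matplotlib 3.10.9 for plots). Named identifiers are the 2 with the smallest p in each direction at a mean of at least 20 CPM, since no symbols could be paired. Alternatives were DESeq2 1.42.0, limma 3.58.1, other scalings, filters and libraries. The members, lists and alternatives were chosen with earlier results of these data known. Counts carry no molecular identifiers, and the floor of 3 counts covers counting error only.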

Additional observations from a re-analysis of the deposited data

Results flagged for a closer look

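Among 50 sets of 4 to 10 libraries searched with Dixon's 95% limit, 8 held a library far from the rest, where chance would give 2.5. E20_2 library 1 had 5197802 counts against 7716897 to 9114870 in the other Day 20 libraries. E20_2 library 4 had a mean correlation of 0.823 with Day 20 libraries against 0.864 to 0.872 in the rest of its set, and it also had the highest ENSMFAG00000045082 of its set (7.02 against 2.3 to 3.01 CPM) and the lowest ENSMFAG00000045754 (269 against 297 to 303 CPM). E20_1 library 3 had 2.71 CPM of ENSMFAG00000040922 against 0 to 0.887 in the other Day 20 libraries. At Day 18, others library 4 had 14828 identifiers detected against 16978 to 17142, and exmc library 3 had 32.2% of counts in 1 identifier against 10.7 to 13.9%, and 44% in the top 10 against 15.9 to 22.7%. In the Day 16 library, 25 identifiers exceeded 3 counts and were at 0 in all 24 libraries compared.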

How the results depend on the processing

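Calls by edgeR changed by over 1.5 times in many settings, listed in the order pooled, hypoblast, epiblast, exmc and others. DESeq2 gave 311, 131, 137, 661 and 72, and limma 226, 144, 23, 61 and 82. With DESeq2's size factors the pooled count was 24 and exmc 217 (13 higher, 204 lower). This scaling moved the median log2 fold change over all identifiers from -0.049 to -0.116 pooled and from -0.024 to -0.166 against exmc, and its part in the counts was not tested. A minimum fold of 2 gave 10 pooled, 3 hypoblast, 51 exmc and 2 others. E20_1 alone gave 12 pooled and 2 each for hypoblast, exmc and others, and E20_2 alone 5 pooled, 3 hypoblast, 2 exmc and 2 others. Without exmc libraries 1 and 4 the counts were 116, 11, 9, 34 and 8. Equal weights for the 4 groups gave 24 pooled. Fitting only the groups compared gave 9, 10, 46 and 13. Against exmc, no filter on low counts gave 176, a filter of 10 CPM in 8 libraries 56 and detected genes as a covariate 41, which gave 7 against epiblast.

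Replicate numbers were not taken to pair the libraries, as the values checked, between the Day 20 sets and between days, were mixed. Deviations of same-numbered libraries of E20_1 and E20_2 correlated at 0.482, -0.201, -0.167 and 0.634, those between days averaged -0.211, 0.0142, 0.0487 and 0.233 for numbers 1 to 4 (0.132 to 0.381 over the 4 pairs of number 4), and 3 of 8 Day 20 libraries correlated best with Day 18 libraries of their own number. Same-numbered Day 18 libraries of different groups were not part of that check. Spearman correlations of hypoblast with epiblast libraries were 0.802, 0.936 and 0.927 for numbers 1 to 3, against 0.78 to 0.884 among hypoblast libraries. Hypoblast with exmc libraries stood at 0.766, 0.92 and 0.776 for numbers 1 to 3. Epiblast with exmc libraries stood at 0.706, 0.932 and 0.788. Pairing by number within Day 18 was not tested. With the replicate block the calls were 44 pooled (18 higher, 26 lower, 23 of the 37 among them), 10 hypoblast, 7 epiblast, 34 exmc (24 of the 110 among them) and 8 others, and ENSMFAG00000045754 did not pass against exmc (edgeR adjusted p = 0.0554).

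An alternative chosen after seeing the data left out library 4 of both Day 20 sets. Calls were then 17 pooled, 3 hypoblast and 19 exmc, and identifiers without overlap of ranges were 17 pooled, 188 exmc and 192 others. With all libraries kept, a minimum of 5 CPM gave 337 identifiers without overlap for epiblast and 121 for others, against 194 and 75 at 20 CPM. Leaving out a library tends to raise such counts, as ranges of fewer libraries separate more readily. Leaving out each library in turn gave 20 to 74 calls pooled, 2 to 8 hypoblast, 2 to 5 epiblast, 43 to 242 exmc and 2 to 6 others, and 322 to 670, 216 to 550, 56 to 95 and 81 to 182 identifiers without overlap for the 4 groups. The variance by day was 5.82 to 6.83% over these fits, and 7.4% without exmc libraries 1 and 4. The likeness within minus between days turned to 0.00457 in that setting. It was among the planned settings for the calls, but was added for likeness and variance after seeing the data. The Day 20 minus Day 18 difference in the share of the 10 most abundant identifiers ran from -2.87 to 0.438, the latter without exmc library 3, and was 1.92 with E20_2 alone and 0.284 without library 4 of both sets. The causes were not tested. Values for the 4 named identifiers, over all settings, kept their direction. Groups of 3 to 8 regions with coefficients of variation near 1 limit which changes could be called, and a missing call does not show that levels were equal.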
